A study of Petromyzon marinus with 12 samples.

Results

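Endostyle RNA of the sea lamprey Petromyzon marinus was compared between stage T29 and the stage before it, T28, with 3 libraries each, which are 6 of the 12 bulk RNA-seq libraries of the series. All 12 libraries, 3 each of T27, T28, T29 and T30, carry the genotype label WT and the tissue label endostyle, and no treatment other than the stage is given. No label explains the T numbers. Replicates are numbered, with no word on whether they are separate animals, so every p-value rests on variation among libraries that could be technical. The libraries of each stage were taken by their labels, while the step itself was chosen with earlier results of these data known. Every gene row that passed the filter on low counts was tested, 16526 of 21967 rows. Of the 3 consecutive steps in the series this one had the fewest changed genes, and the comparison asked which gene programmes moved in it.

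The endostyle of the larval lamprey is an organ of the pharyngeal floor with ciliated and glandular cells. It is secretory, takes up iodide, and becomes the thyroid gland at metamorphosis. Glandular cells make their product in the endoplasmic reticulum (ER), where proteins fold and receive sugar chains, and pass it to the Golgi in coated vesicles. Cells that still divide express genes of DNA replication, mitosis and ribosome building.

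The 6 libraries held 32488742 to 36032488 counts. The 13 protein-coding mitochondrial genes took 1.70% to 1.96% of the counts at T28 and 1.70% to 2.06% at T29, so depth and this share overlapped between the stages. In a principal component analysis of these 6 libraries the first component, with 48.9% of the variance, separated the stages, and the second, with 19%, set T28 replicate 3 and T29 replicate 3 at opposite ends (−21.2 and 30.7). Of the defining endostyle and thyroid markers SLC5A5 was matched by name and was measured in every library; TG, NKX2-1, PAX8, FOXE1 and DUOX1 were not matched to a named row, which does not show them absent. The ciliated cell markers DNAH5 and DNAI1 were between 92.8 and 150.4 CPM (counts per 1000000 of the TMM-scaled library size) in the 6 libraries.

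Of 16526 genes, 2215 (13.4%) changed between T28 and T29 in edgeR's quasi-likelihood test with a Benjamini-Hochberg adjusted p under 0.05. That was 1299 higher at T29 (7.86%) and 916 lower (5.54%), and below "rose" and "fell" refer to this test. The step before, from T27 to T28, changed 26% of genes and the step after, from T29 to T30, 60.3%. The median fold was 1.58 for genes that rose and 1.37 for genes that fell, and 720 and 302 of them passed 1.5-fold. The 3 libraries of one stage lay entirely above those of the other in 5619 genes (34%). Among called genes this held for 98.8% of those that rose and 98.8% of those that fell. A lack of overlap in a called gene, in the text or figures, therefore adds little to its call. The number of changed genes depended on single libraries: it was 1192, 1346 and 1451 without T28 replicates 1, 2 and 3, and 1259 without T29 replicate 1.

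The 2 sets went in the direction of the whole span for the most part. T30 against T27, which uses none of these 6 libraries, called 68.8% of all genes, 34.8% higher and 34.1% lower at T30. Of the 1299 genes that rose from T28 to T29, 1075 (82.8%) were also higher at T30 than at T27 and 72 (5.54%) were lower. Of the 916 that fell, 691 (75.4%) were lower at T30 than at T27 and 93 (10.2%) were higher. A further test asked of each gene whether its change at this step differed from the mean change of the other 2 steps, and it called 2346 genes (14.2%), with 1277, 1525 and 1458 without T28 replicate 2, T28 replicate 3 and T29 replicate 3.

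**Figure D1:**
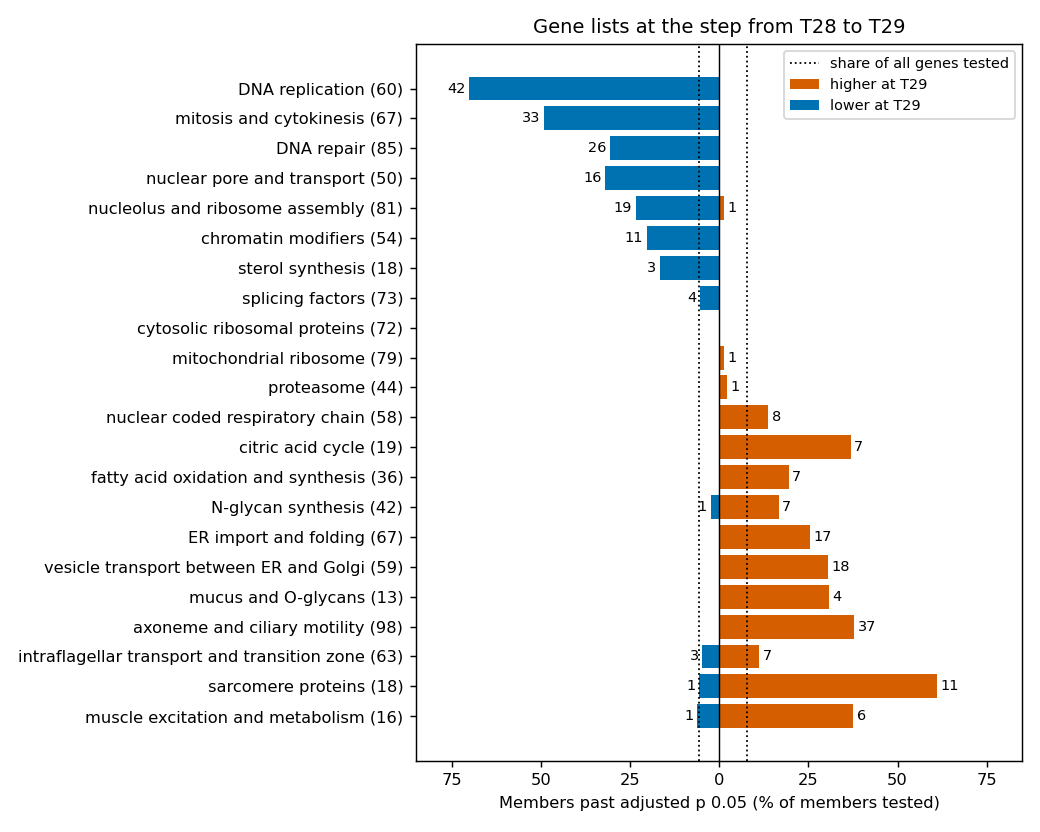
Share of the tested members of 22 gene lists past the threshold at T29 against T28 (x axis, percent; orange to the right for higher, blue to the left for lower at T29; number of tested members in brackets, number called at the bar end). The dotted lines mark all genes tested, 7.86% higher and 5.54% lower. Replication, mitosis and repair lists extend to the lower side alone. ER, vesicle, mucus, citric acid cycle and axoneme lists extend to the higher side alone, while N-glycan synthesis also has 1 member lower.

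Most genes of DNA replication fell and none rose. Of 60 measured members 42 fell (70% against 5.54% of all genes), and all 60 had a negative estimate, with a median log2 change of −0.39 against −0.01 over all genes. RRM1, the large subunit of ribonucleotide reductase, which makes the deoxynucleotides for DNA synthesis, stood at 130.1, 124 and 113 CPM at T28 and 69.5, 74.9 and 75.7 CPM at T29 (replicates 1, 2 and 3 in order, here and below). Every T29 library was below every T28 library, and the gene fell 1.67-fold (log2 change −0.74, SE 0.08, edgeR adjusted p = 0.000125). RRM1 lies on the plus strand of NW_022638182.1, from 105 to 83593 in the kPetMar1 assembly, as the authors' file gives it.

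The minichromosome maintenance helicase, which unwinds DNA at the replication fork, fell in several subunits. MCM7 was at 175, 152 and 167 CPM at T28 and 117, 109.8 and 103 CPM at T29, MCM5 at 199.6, 177 and 178 CPM at T28 and 125, 124 and 131 CPM at T29 and MCM4 at 124, 114 and 112 CPM at T28 and 76.5, 87.3 and 75.7 CPM at T29. In each the stages did not overlap. The falls were 1.5-fold (log2 change −0.59, SE 0.07, edgeR adjusted p = 0.000219), 1.46-fold (log2 −0.54, SE 0.08) and 1.46-fold (log2 −0.54, SE 0.08). WDHD1, which ties the helicase to the DNA polymerases, fell 1.5-fold (log2 change −0.58, SE 0.08, edgeR adjusted p = 0.000415). DNMT1, the methyltransferase that copies DNA methylation onto the new strand, fell 1.3-fold (log2 change −0.38, SE 0.06, edgeR adjusted p = 0.000876). Without T28 replicate 1 and without T29 replicate 1 the list count was 27 in each case, while the median log2 change ran from −0.426 to −0.355 over the 12 fits that each left out 1 library.

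Mitosis and cytokinesis genes moved the same way, with 33 of 67 lower (49.25% against 5.54% of all genes), none higher and a median log2 change of −0.31. MIS12, a kinetochore scaffold that joins chromosomes to the spindle, stood at 75, 65.1 and 72.3 CPM at T28 and 41.3, 47 and 44.8 CPM at T29. The T29 values lay below all T28 values, a fall of 1.59-fold (log2 change −0.67, SE 0.10, edgeR adjusted p = 0.000902). The condensin subunits SMC4 and SMC2, which compact chromosomes, fell 1.36-fold (log2 change −0.44, SE 0.06, edgeR adjusted p = 0.000474) and 1.36-fold (log2 −0.45, SE 0.07). The outer kinetochore gene KNL1 fell 1.32-fold (log2 −0.40, SE 0.07). KIF11, the motor that pushes spindle poles apart, was at 84.5, 84.2 and 84.2 CPM at T28 and 68.5, 64.7 and 61 CPM at T29, again without overlap, and fell 1.3-fold (log2 change −0.38, SE 0.07, edgeR adjusted p = 0.0029). The count was 20 without T28 replicate 1 and 21 without T29 replicate 2.

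DNA repair genes fell in 26 of 85 members (30.6% against 5.54% of all genes), with no member higher and a median log2 change of −0.24. EXO1, an exonuclease of mismatch repair, was at 32.3, 33 and 32.8 CPM at T28 and 21.1, 19.8 and 21.8 CPM at T29, separate between the stages, and fell 1.56-fold (log2 change −0.65, SE 0.09, edgeR adjusted p = 0.000415). BRCA1, of homologous recombination, fell 1.55-fold (log2 change −0.63, SE 0.09, edgeR adjusted p = 0.00085). The mismatch reader MSH6 fell 1.45-fold (log2 −0.54, SE 0.09), the checkpoint kinase CHEK1 1.44-fold (log2 −0.52, SE 0.09) and the strand break sensor PARP1 1.33-fold (log2 −0.41, SE 0.07). The count of 26 was 17 without any one of the 3 T28 libraries or T29 replicate 2, and 16 without T29 replicate 1.

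**Figure D2:**
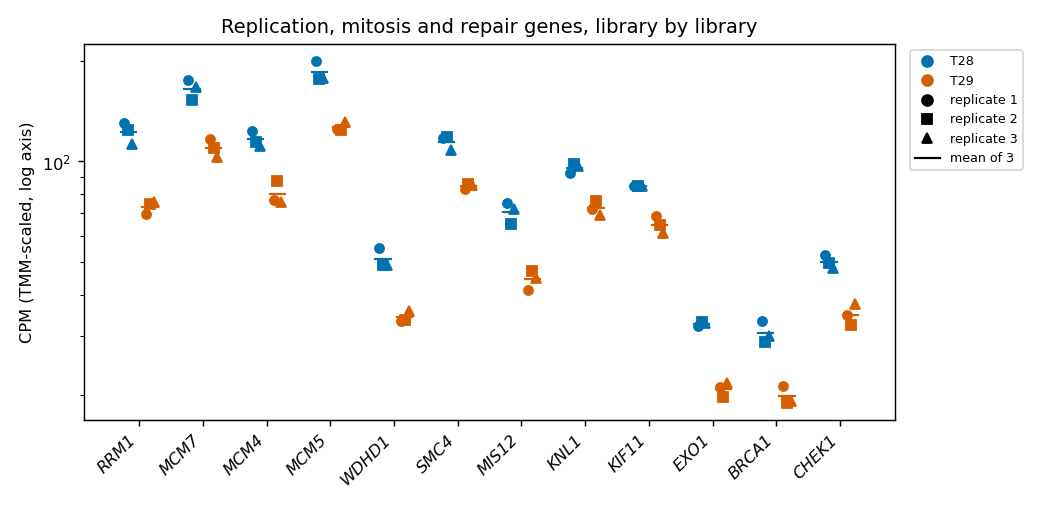
CPM (log axis) of 12 replication, mitosis and repair genes in the T28 (blue) and T29 (orange) libraries, one symbol per library and a line at the mean of 3. In all 12 genes the 3 T29 libraries sit below the 3 T28 libraries.

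For part of these genes the fall was smaller than the mean of the other 2 steps, which the last step dominates: the median log2 change of the mitosis list was −0.25 from T27 to T28, −0.31 here and −1.92 from T29 to T30. The test of the step against the mean of the other 2 steps called 27 of 60 replication genes and 44 of 67 mitosis genes, each with a change here less negative than that mean, and none in the other direction. Of all genes it called 14.2%. For KIF11 the log2 change was −0.29 at the first step, −0.38 here and −2.53 at the last (this step minus the mean of the others 1.03, edgeR adjusted p = 0.000105). RRM1 had no such difference past the threshold (−0.74 against −0.76, adjusted p = 0.931 with edgeR). In the repair list of 85 genes the same test called 4 with a less negative change here and 2 in the other direction, a smaller share than of all genes.

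Lists that serve growth of the nucleus and the ribosome also fell in larger shares than the 5.54% of all genes. Nuclear pore and transport genes fell in 16 of 50 members (32%, median log2 change −0.19). Nucleolus and ribosome assembly genes fell in 19 of 81 with 1 higher (23.5%, median −0.18), and chromatin modifiers in 11 of 54 (20.4%, median −0.15). NUP210, a membrane protein of the nuclear pore, was at 95.4, 102 and 91.7 CPM at T28 and 73.3, 73.3 and 65.8 CPM at T29, without overlap, and fell 1.36-fold (log2 change −0.44, SE 0.07, edgeR adjusted p = 0.00138). Another pore gene, NUP43, fell 1.61-fold (log2 −0.69, SE 0.12), and RCC1, the exchange factor for the transport GTPase Ran, 1.26-fold (log2 −0.33, SE 0.07).

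UTP25, which helps to process the small subunit ribosomal RNA, was at 53.2, 55.2 and 49 CPM at T28 and 36.1, 36 and 35.8 CPM at T29. All 3 T29 libraries were lower, a fall of 1.46-fold (log2 change −0.54, SE 0.08, edgeR adjusted p = 0.000973). NOL6 and RRP12, of the same pathway, had log2 changes of −0.44 (SE 0.07) and −0.42 (SE 0.07). The exception was PES1, a large subunit assembly factor, which rose (log2 change 0.32, SE 0.08, edgeR adjusted p = 0.0151); its call was lost without T28 replicate 2 or T29 replicate 1 (edgeR adjusted p 0.0526 to 0.0708). Among chromatin genes PBRM1, a subunit of a SWI/SNF remodelling complex, fell 1.4-fold (log2 change −0.49, SE 0.07, edgeR adjusted p = 0.000975), the remodeller HELLS 1.39-fold (log2 −0.48, SE 0.10) and the histone methyltransferase SUV39H2 1.23-fold (log2 −0.30, SE 0.06). Counts in this group depended on single libraries. Without T28 replicate 1 they were 6 for the pore, 6 for the nucleolus and 5 for chromatin. Without T28 replicate 2 they were 9, 6 and 5, without T29 replicate 1 they were 5, 6 and 5, and without T29 replicate 3 they were 9 for the pore and 12 for the nucleolus. Without T29 replicate 2 the nucleolus count was 9 and the chromatin count 7, and without T28 replicate 3 the chromatin count was 7.

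Protein synthesis and degradation machinery gave few calls. None of 72 cytosolic ribosomal protein genes was called in edgeR, 0 at an unadjusted p under 0.05 and 0 in DESeq2 or limma-voom (median log2 change 0.06), and these multigene counts may share reads with near-identical copies. Still, 69 of the 72 had a positive estimate, against 8075 of all 16526 genes. Nearly all signs in a list can thus point the same way without a call, which limits every sign count given here. Among 79 mitochondrial ribosome genes 1 rose, MRPL44 (1.59-fold, log2 0.67, SE 0.14), and 1 of 44 proteasome genes. Splicing factors fell in 4 of 73, a share near the 5.54% of all genes, though 67 had a negative estimate (median log2 change −0.12). Their summed level was 11918, 11804 and 11311 CPM at T28 and 10288, 10463 and 11092 CPM at T29, without overlap. The sum of retinoid and nuclear receptors, with 0 of 14 called, did not overlap either. It was 292, 280 and 279 CPM at T28 and 262, 247 and 273 CPM at T29. A lack of overlap in a summed level therefore adds little, here and below. The splicing count of 4 was 1 without T28 replicates 1 or 2 or T29 replicate 1, and 2 without T29 replicate 2. It was 6 without T30 replicate 3, 7 with upper-quartile scaling or the 6 libraries alone, and 9 in DESeq2.

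Secretory pathway genes were called higher in a larger share than all genes. Of 67 genes of ER import and folding 17 rose (25.4% against 7.86% of all genes) and none fell, with a median log2 change of 0.16 and 56 positive estimates. The summed level of the list was 11210.1, 11664 and 11083 CPM at T28 and 13753, 13155 and 13488 CPM at T29, with no overlap. PDIA4 and PDIA5, disulfide isomerases that fold secreted proteins, both rose. PDIA5 stood at 218, 250 and 243 CPM at T28 and 391, 337 and 316 CPM at T29, higher in each T29 library than in any T28 library, and rose 1.47-fold (log2 change 0.56, SE 0.08, edgeR adjusted p = 0.00096). PDIA4 was at 297, 309.7 and 278 CPM at T28 and 450.1, 401 and 422 CPM at T29, also separate, and rose 1.44-fold (log2 change 0.53, SE 0.09, edgeR adjusted p = 0.00142).

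Another isomerase, TXNDC5, rose 1.37-fold (log2 change 0.46, SE 0.09, edgeR adjusted p = 0.0046). SYVN1, the ubiquitin ligase that sends misfolded proteins out of the ER, was at 54.9, 56.5 and 51.9 CPM at T28 and 72.7, 73.6 and 71.9 CPM at T29 and rose 1.34-fold (log2 change 0.42, SE 0.08, edgeR adjusted p = 0.00316). ERLEC1, a lectin of the same disposal route, rose 1.31-fold (log2 0.39, SE 0.07), and SRPRB, a subunit of the receptor that docks ribosomes on the ER, 1.36-fold (log2 0.44, SE 0.09). In these 4 genes the T28 and T29 libraries did not overlap. The count of members that rose was 9 without T28 replicate 1 and 9 without T29 replicate 1.

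Vesicle transport between ER and Golgi rose in 18 of 59 members (30.5% against 7.86% of all genes), with no member lower (median log2 change 0.19). The cargo receptors TMED2 and TMED10, which load proteins into coated vesicles, both rose. TMED10 was at 533, 552 and 572 CPM at T28 and 865, 832 and 821 CPM at T29 and rose 1.52-fold (log2 change 0.60, SE 0.09, edgeR adjusted p = 0.000717). TMED2 was at 394, 425 and 409 CPM at T28 and 631, 625 and 597 CPM at T29 and rose 1.51-fold (log2 change 0.59, SE 0.08, edgeR adjusted p = 0.000429). The lowest T29 library exceeded the highest T28 library in both. TMED10 lies on the minus strand of NC_046101.1, from 9200792 to 9207339 of kPetMar1. GOSR2, a SNARE that fuses vesicles with the Golgi, rose 1.48-fold (log2 0.57, SE 0.08) and COG7, of the tethering complex for vesicles within the Golgi, 1.29-fold (log2 0.37, SE 0.06). The count was 7 without T28 replicate 1, 9 without T28 replicate 3, 7 without T29 replicate 1 and 10 without T29 replicate 2.

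Sugar chain genes moved less evenly. N-glycan synthesis rose in 7 of 42 members (16.7% against 7.86% of all genes) and fell in 1 (2.38% against 5.54%), with a median log2 change of 0.12. RPN1, a subunit of the oligosaccharyltransferase that attaches the chain, was at 295, 321 and 278 CPM at T28 and 371, 385 and 392 CPM at T29 and rose 1.28-fold (log2 change 0.36, SE 0.08, edgeR adjusted p = 0.0092), while PGM3, which makes a precursor of the amino sugars, rose 1.37-fold (log2 change 0.45, SE 0.08, edgeR adjusted p = 0.0017). Both were higher in every T29 library. ALG12, a mannosyltransferase that builds the chain, fell instead, 1.39-fold (log2 change −0.47, SE 0.07, edgeR adjusted p = 0.00119). In the list of mucus and O-glycans 4 of 13 rose (30.8%). Among them GALNT3, which starts O-linked chains on mucins, rose from 53 ± 3.28 CPM (SD, n = 3) to 86 ± 4.61 CPM (SD, n = 3), 1.62-fold (log2 change 0.70, SE 0.08, edgeR adjusted p = 0.000203). That count of 4 was 2 without T28 replicate 1 or T29 replicate 1. The N-glycan count was small and was 3 without T28 replicates 1 or 2 or T29 replicate 3, and 2 without T28 replicate 3 or T29 replicate 1. Its median log2 change ran from 0.0812 to 0.136 over the 12 fits that each left out 1 library.

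**Figure D3:**
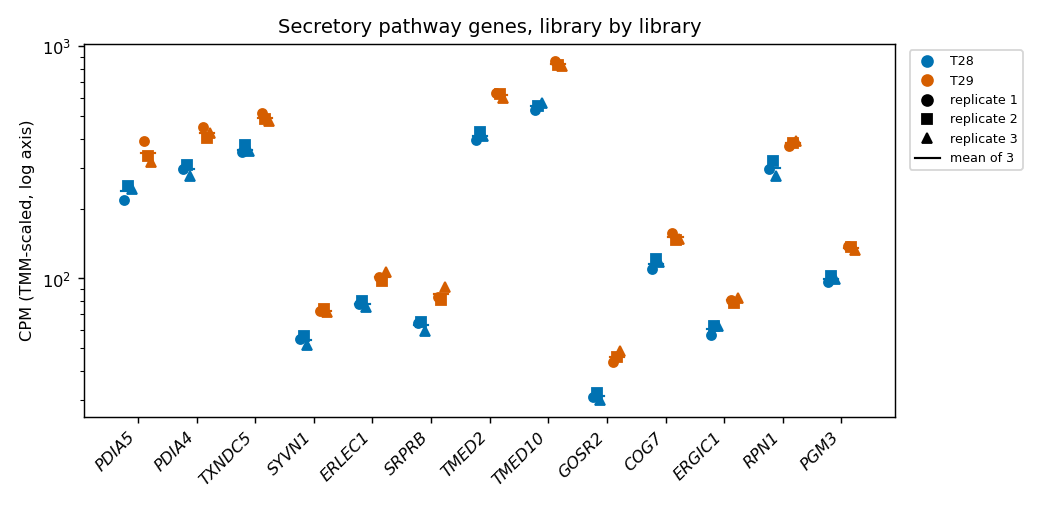
CPM (log axis) of 13 genes of ER folding, vesicle transport and N-glycan synthesis in the T28 (blue) and T29 (orange) libraries, one symbol per library and a line at the mean of 3. All T29 libraries sit above all T28 libraries in each gene.

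The test against the mean of the other 2 steps called 14.2% of all genes. The ER list was called in a larger share, and the vesicle and N-glycan lists in a share near it. With a change here above that mean it called 17 of 67 ER genes, 7 of 59 vesicle genes and 5 of 42 N-glycan genes. In the other direction it called 0, 0 and 1. PDIA4 changed by −0.11 at the first step, 0.53 here and −0.95 at the last on the log2 scale (this step minus the mean of the others 1.05, edgeR adjusted p = 0.000302), and was lower at T30 than at T27 (log2 −0.53, edgeR adjusted p = 6.30e-05). ERGIC1, a protein of the compartment between ER and Golgi, went from 60.8 ± 3.08 CPM (SD, n = 3) to 80.6 ± 1.95 CPM (SD, n = 3) and rose 1.33-fold (log2 change 0.41, SE 0.07, edgeR adjusted p = 0.00288); it also was lower at T30 than at T27 (log2 −0.36, edgeR adjusted p = 0.000545). By contrast TMED10 was higher at T30 than at T27 (log2 1.39) and its step was not called different (0.21, edgeR adjusted p = 0.324).

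Genes of motile cilia were called in the higher direction alone. Of 98 axoneme and motility genes 37 rose (37.8% against 7.86% of all genes) and none fell, with a median log2 change of 0.31. TPPP3, a microtubule bundling protein, was at 122, 120.3 and 111 CPM at T28 and 179, 254 and 196 CPM at T29 and rose 1.78-fold (log2 change 0.83, SE 0.13, edgeR adjusted p = 0.00131). DNAAF6, which helps to assemble the dynein motors in the cytoplasm, stood at 92.3, 85.6 and 96.7 CPM at T28 and 136, 149.5 and 143 CPM at T29 and rose 1.56-fold (log2 change 0.64, SE 0.12, edgeR adjusted p = 0.00337). No T29 library of either gene fell within the T28 range. CCDC151, of the docking complex for outer dynein arms, rose 1.42-fold (log2 0.51, SE 0.09), and CCDC146 and CFAP69, of the ciliary and flagellar axoneme, 1.58-fold and 1.42-fold. The defining markers themselves were not called in edgeR: DNAI1 had a log2 change of 0.35 (adjusted p = 0.0669) and DNAH5 of 0.17 (adjusted p = 0.469).

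Intraflagellar transport and transition zone genes, which build cilia of any type, rose in 7 of 63 and fell in 3, shares of 11.1% and 4.76% that are near the 7.86% and 5.54% of all genes. The 7 were 2 or 3 without any T28 library or T29 replicate 2. TCTN1, of the transition zone, rose 1.66-fold (log2 change 0.73, SE 0.07, edgeR adjusted p = 6.29e-05). The centriole genes C2CD3 and CEP83, which act when the basal body is made, fell 1.4-fold (log2 change −0.48, SE 0.10, edgeR adjusted p = 0.00598) and 1.39-fold (log2 −0.47, SE 0.10). In the axoneme list the step against the others was called for 11 of 98 genes, a smaller share than the 14.2% of all genes. All 11 had a change here below the mean of the others, and the median log2 change of the list was 0.59 from T27 to T28. The axoneme count was 20 without T28 replicates 2 or 3 and 19 without T29 replicate 2. In bulk RNA fewer or more cells of a type and less or more RNA per cell cannot be told apart, here and in every list.

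Energy metabolism genes had positive estimates for the most part. All 19 measured citric acid cycle genes had a positive estimate and 7 rose (36.8% against 7.86% of all genes, median log2 change 0.19). Of 58 nuclear coded respiratory chain genes 57 had a positive estimate and 8 rose (13.8%, median 0.22). None of the 13 coded by the mitochondrial genome was called in edgeR, DESeq2 or limma-voom, with 0 at an unadjusted p under 0.05 (median 0.03). NDUFS8, an iron-sulfur subunit of complex I, was at 366, 366 and 370.5 CPM at T28 and 565, 504 and 569 CPM at T29, without overlap, and rose 1.49-fold (log2 change 0.57, SE 0.08, edgeR adjusted p = 0.00086). SUCLG1 and SUCLG2, subunits of succinyl-CoA ligase, rose 1.32-fold (log2 change 0.41, SE 0.07, edgeR adjusted p = 0.00291) and 1.63-fold (log2 0.70, SE 0.15), and IDH3A, of isocitrate dehydrogenase, 1.63-fold (log2 0.71, SE 0.15). The respiratory chain count is fragile: it was 1 without T28 replicate 1 or T29 replicate 3 and 2 without T28 replicates 2 or 3 or T29 replicate 1, and 23 in a fit of these 6 libraries alone. The citric acid cycle count was 3 or 4 without any T28 library, T29 replicate 1 or T29 replicate 3.

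Fatty acid genes rose in 7 of 36 (19.4% against 7.86% of all genes), among them the beta-oxidation thiolase ACAA2 (1.38-fold, log2 0.46, SE 0.08). The count was 4 without T28 replicates 1 or 2 and 3 without T28 replicate 3. ACSS1, which makes acetyl-CoA from acetate in mitochondria, stood at 65.3, 73.3 and 65.3 CPM at T28 and 233, 242 and 149 CPM at T29 and rose 3.06-fold (log2 change 1.61, SE 0.21, edgeR adjusted p = 0.000407). GAPDH, of glycolysis, was at 63.5, 41.7 and 50.3 CPM at T28 and 138, 115 and 127 CPM at T29 and rose 2.44-fold (log2 change 1.29, SE 0.17, edgeR adjusted p = 0.000432). Its lowest library in each stage was replicate 2, as for the summed sarcomere list below, and the part of muscle RNA in its rise was not tested. In sterol synthesis 17 of 18 genes had a negative estimate and 3 fell (16.7% against 5.54% of all genes), with 5 lower without T30 replicate 2. The 3 were the lanosterol synthase LSS (1.66-fold, log2 −0.73, SE 0.16), MVD of the mevalonate route (1.45-fold, log2 −0.53, SE 0.10) and the reductase DHCR7 (1.5-fold, log2 −0.58, SE 0.13).

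The thyroid lists were short, so their shares rest on 1 or 2 called genes. Of 12 measured genes of thyroid hormone production 1 rose (8.33% against 7.86% of all genes) and 2 fell (16.7% against 5.54%). Of 9 regulators 1 fell (11.1%) and none rose. SLC5A5, the sodium iodide symporter, was at 9.73, 9.41 and 8.55 CPM at T28 and 14.3, 17 and 14.1 CPM at T29, with every T29 library above T28, and rose 1.64-fold (log2 change 0.72, SE 0.12, edgeR adjusted p = 0.0019). Its log2 change was 0.64 at the first step and 2.8 at the last, and the change here minus the mean of these was −1.0 (edgeR adjusted p = 0.00405).

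LRP2 and CTSB, an endocytic receptor and a lysosomal protease, had log2 changes of −0.54 and −0.40. Their calls were lost without 4 and 5 of the 12 libraries (T28 replicates 1 and 3 and T29 replicates 1 and 3 for LRP2, with edgeR adjusted p of 0.0531 to 0.177; all T28 libraries and T29 replicates 1 and 2 for CTSB, with 0.0506 to 0.0913). The deiodinase DIO2 stood at 0.16, 0.583 and 0.385 CPM at T28 and 1.4, 1.34 and 0.568 CPM at T29, a log2 change of 1.54 with an SE of 0.55 that was not called (edgeR adjusted p = 0.0817). The members IYD, ANO1, SLC5A8, CTSD, CRYM, KCNQ1 and TTR, had log2 changes between −0.26 and 0.24, none called in edgeR. PAX2, a transcription factor of the family of PAX8, was at 63.3, 70.5 and 64.3 CPM at T28 and 45.8, 48.3 and 43 CPM at T29, lower in each T29 library, and fell 1.44-fold (log2 change −0.53, SE 0.08, edgeR adjusted p = 0.000984). Over the span it was higher at T30 than at T27 (log2 0.71, edgeR adjusted p = 1.65e-06). The regulators HHEX, FOXA2, ISL1, PAX1, PAX9, SOX2, DACH1 and GATA3 had log2 changes between −0.29 and 0.54 and were not called.

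Sarcomere genes had the largest median change of the 63 lists. Of 18 sarcomere genes 11 rose (61.1% against 7.86% of all genes) and 1 fell (5.56% against 5.54%), with a median log2 change of 1.1. Of 16 genes of muscle excitation and metabolism 6 rose (37.5%) and 1 fell (6.25%), with a median of 0.59. The 6 were 2 without T28 replicate 2 or T29 replicate 1, and the fall was not called in DESeq2, limma-voom or the 6 libraries alone. Of 4 muscle regulators none was called (median 0.05), with 2 positive and 2 negative estimates. The summed level of the sarcomere list was 708, 444 and 588 CPM in the T28 libraries and 1001, 813 and 1045 CPM in the T29 libraries. Replicate 2 was lowest in each stage, and the stages did not overlap. Of the defining muscle markers ACTN2, TTN and NEB were matched and measured in every library, while ACTA1, MYH7 and TNNT3 were not matched. The part of muscle content in the other results was not tested.

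ACTN2, which crosslinks actin at the sarcomere border, stood at 78.8, 44.6 and 62.7 CPM at T28 and 191, 154 and 191 CPM at T29 and rose 2.88-fold (log2 change 1.53, SE 0.22, edgeR adjusted p = 0.000731). ATP2A2, the pump that returns calcium to its store, was at 119, 55.5 and 91.3 CPM at T28 and 347, 244 and 329 CPM at T29 and rose 3.46-fold (log2 change 1.79, SE 0.40, edgeR adjusted p = 0.0101). T28 replicate 2 was the lowest library for both. ACTN2 lies on the plus strand of NC_046097.1, from 6539818 to 6587641 of kPetMar1. The giant spring protein TTN rose 2.56-fold (log2 change 1.36, SE 0.31, edgeR adjusted p = 0.0113), while NEB, which spans the thin filament, missed the threshold (log2 1.05, SE 0.34, edgeR adjusted p = 0.0534). LDB3, TCAP and ANKRD2, of the sarcomere border and its stretch response, rose 2.4-fold, 2.43-fold and 2.22-fold, and the muscle chaperone HSPB7 3.75-fold. The AMP deaminase AMPD1, of the purine nucleotide cycle in muscle, rose 4.88-fold (log2 change 2.29, SE 0.29, edgeR adjusted p = 0.000307). Without T28 replicate 2 the sarcomere count was 7. The single fall, NEBL (log2 −0.47), lost its call without 10 of the 12 libraries (all but T27 replicate 1 and T29 replicate 1, edgeR adjusted p 0.0527 to 0.16).

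**Figure D4:**
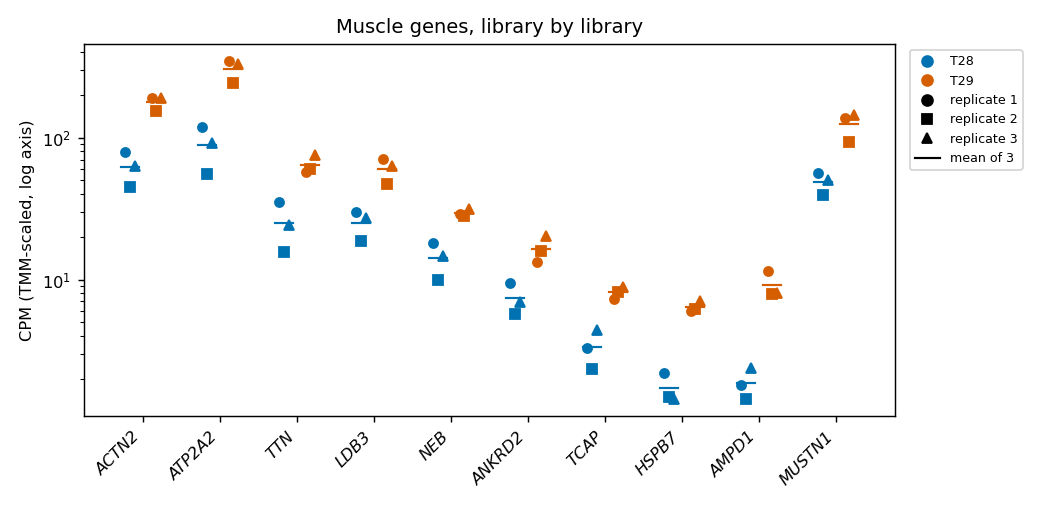
CPM (log axis) of 10 muscle genes in the T28 (blue) and T29 (orange) libraries, with circles, squares and triangles for replicates 1, 2 and 3 and a line at the mean of 3. The T29 libraries lie above the T28 libraries in each gene, and T28 replicate 2 is the lowest or next to lowest library.

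MUSTN1, a small protein of muscle and skeletal tissue, differed from the rest of the span. It was at 56.7, 39.2 and 50.3 CPM at T28 and 137, 92.6 and 144 CPM at T29 and rose 2.55-fold (log2 change 1.35, SE 0.19, edgeR adjusted p = 0.000513), against −0.08 at the first step and −1.42 at the last (this step minus their mean 2.1, edgeR adjusted p = 0.000523), and T30 was not called different from T27 (log2 −0.14, edgeR adjusted p = 0.504).

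Markers of other tissues moved in few genes, in short lists whose shares rest on at most 3 called genes in a direction. Of all genes 7.86% rose and 5.54% fell. In the pigment cell list 3 of 12 rose (25%), with GPNMB, a melanosome protein, from 4.65 ± 0.335 CPM (SD, n = 3) to 9.15 ± 0.166 CPM (SD, n = 3). The count was 1 without T28 replicate 3 or T29 replicates 1 or 2. The summed level of the list was 120.1, 118 and 115 CPM at T28 and 135, 142 and 136 CPM at T29. PMEL rose 1.62-fold and lost its call without T28 replicates 1 or 3 or T29 replicates 1 or 2 (edgeR adjusted p 0.0628 to 0.0896), and TYR and DCT, of melanin synthesis, had log2 changes of 0.56 and 0.46 and were not called. In the liver list 1 rose (5.26%) and 2 fell (10.5%) of 19. ALB was at 0 in 5 of the 6 libraries, and APOB and FGA stayed below 1 CPM. Connective tissue matrix genes gave 1 higher (5.56%) and 2 lower (11.1%) of 18, with the markers PDGFRA and PRRX1 at log2 changes of −0.17 and −0.24, neither called. Leukocyte genes gave 2 higher (25%) and 1 lower (12.5%) of 8 and neurons 2 higher of 18 (11.1%). Epithelium genes gave 2 lower of 11 (18.2%) and none higher, and both calls were lost without several single libraries. No member of the endothelium (7 tested), erythroid (3), cartilage (6), gill (10) or glia (2) lists was called in edgeR. At an unadjusted p under 0.05 there were 0, 0, 1, 5 and 0, and DESeq2 called 3 of the gill and 1 of the cartilage genes. The defining markers of leukocytes, neurons, endothelium, erythroid cells, cartilage and glia were not matched to a named row, so their levels were not checked.

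The largest changes among named genes were spread over several functions. ERMN, an actin-linked protein known from myelinating cells, went from 0.224, 0.146 and 0.237 CPM at T28 to 4.03, 2.27 and 1.2 CPM at T29, the largest named rise at 12.3-fold (log2 change 3.62, SE 0.49, edgeR adjusted p = 0.000452), on few counts at T28. The cystine transporter SLC7A11 stood at 1.54, 2.33 and 1.8 CPM at T28 and 11, 10.2 and 5.37 CPM at T29 and rose 4.68-fold (log2 change 2.23, SE 0.27, edgeR adjusted p = 0.000229), and SLC7A9, another amino acid transporter, rose 2.12-fold (log2 change 1.09, SE 0.21, edgeR adjusted p = 0.00382). T29 replicate 3 was the lowest T29 library for all 3 genes, and still above T28. PTH1R, the parathyroid hormone receptor, rose 3.69-fold (log2 change 1.88, SE 0.33, edgeR adjusted p = 0.00215). BOLL, an RNA-binding protein of the germline family DAZ, rose 3.9-fold (log2 change 1.96, SE 0.27, edgeR adjusted p = 0.000464), LDLRAD2, a protein with a lipoprotein receptor motif, 3.05-fold (log2 1.61, SE 0.16), and SPATA1 3.33-fold (log2 1.74, SE 0.29).

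Among the falls, ACOD1, which makes itaconate in activated macrophages of mammals, stood at 15.2, 31.1 and 11.7 CPM at T28 and 2.97, 5.26 and 1.8 CPM at T29 and fell 5.75-fold (log2 change −2.52, SE 0.40, edgeR adjusted p = 0.00126). T28 replicate 2 was the highest library by far, but no T29 library reached T28. HPX, the haem-binding plasma protein, was at 76, 77.6 and 73.8 CPM at T28 and 26, 27.9 and 26.6 CPM at T29, tight within each stage, and fell 2.83-fold (log2 change −1.5, SE 0.18, edgeR adjusted p = 0.000229). SYCP3, a protein of meiotic chromosomes, fell 2.75-fold (log2 change −1.46, SE 0.22, edgeR adjusted p = 0.000998), and the dopamine receptor DRD2 2.73-fold (log2 change −1.45, SE 0.29, edgeR adjusted p = 0.00514). The transcription factor MYB, active in dividing progenitor cells of other vertebrates and in cells that form many cilia, was at 55.1, 50.6 and 51.8 CPM at T28 and 21.3, 26.9 and 26.9 CPM at T29 and fell 2.1-fold (log2 change −1.07, SE 0.11, edgeR adjusted p = 6.00e-05). KLHL14, an adaptor of a ubiquitin ligase, fell 2.59-fold (log2 −1.37, SE 0.23). The Notch ligand JAG1 fell from 102 ± 9.05 CPM (SD, n = 3) to 67.9 ± 4.95 CPM (SD, n = 3), 1.5-fold (log2 change −0.59, SE 0.09, edgeR adjusted p = 0.00119).

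**Figure D5:**
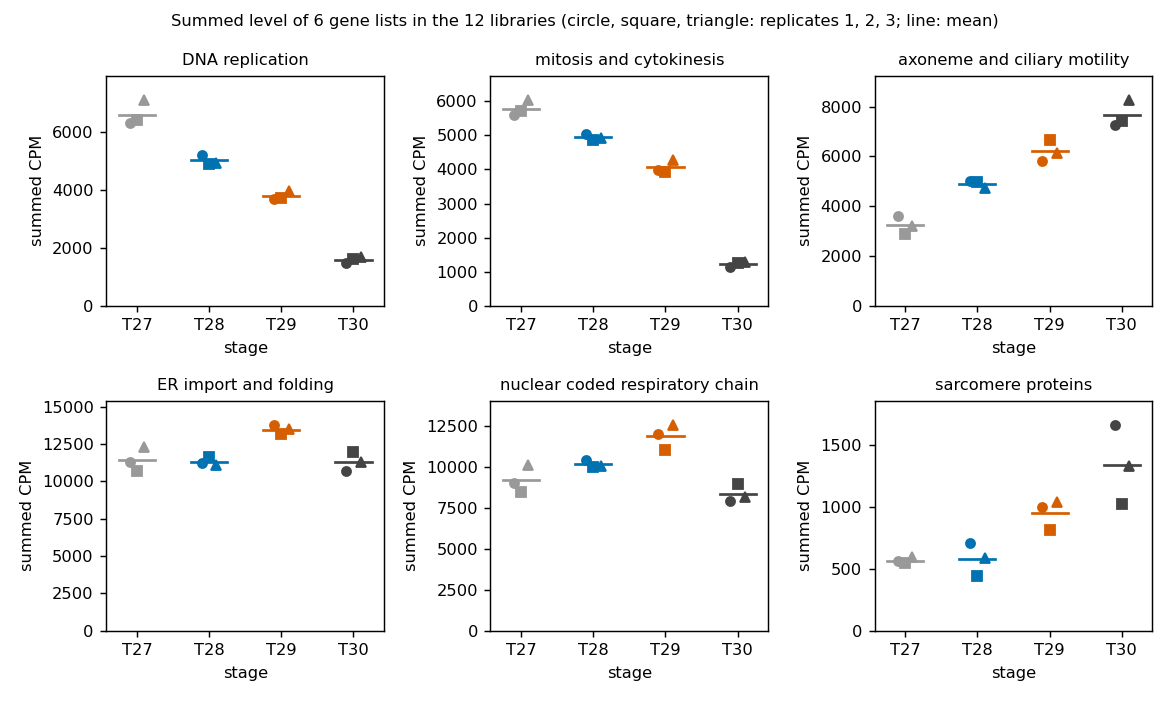
Summed CPM of 6 gene lists (y axis, from 0) in each of the 12 libraries by stage (x axis), with circles, squares and triangles for replicates 1, 2 and 3 and a line at the stage mean. Replication and mitosis sums are lower and axoneme and sarcomere sums higher in mean at T29 than at T28 and again at T30, while the ER and respiratory chain sums are highest in mean at T29.

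The summed levels place the step within the series. The replication list summed to 5209, 4896 and 4933 CPM at T28, 3698, 3704 and 3947 CPM at T29 and 1477, 1619 and 1669 CPM at T30. The ER list stood at 11282, 10734 and 12336 CPM at T27 and 10723, 11977 and 11301 CPM at T30, both below the T29 libraries. The respiratory chain list was at 10415, 10025 and 10077 CPM at T28, 12059, 11031 and 12553 CPM at T29 and 7953, 8948 and 8201 CPM at T30. The vesicle list, in contrast, was at 8514, 8354 and 8332 CPM at T29 and 8857, 9501 and 9454 CPM at T30.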

How the data were processed

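Endostyle RNA of wild-type sea lamprey was sequenced at T27, T28, T29 and T30, with 3 libraries each. Per the labels' protocols, the RNAqueous kit gave the RNA and Illumina protocols the libraries. The authors deposited raw counts per gene, made, per the file headers, with featureCounts 1.6.3 on a kPetMar1 annotation with no strand or multiple-mapping option, so reads of overlapping or near-identical genes cannot be told apart. Bowtie2 and DESeq2 were used per the submitters' processing notes, with settings not given in the sources used. A deposited table of scores across species was not used. All 12 sample columns were mapped by name, and 0 others held sample values. Of 21967 rows, 5919 carry a symbol, and 688 locus rows were named by gene ID from RefSeq (UKy_Petmar_22M1.pri1.0, another build, names alone).

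Genes were kept with filterByExpr by stage (minimum count 10). Library sizes were TMM-scaled and edgeR 4.0.16 (R 4.3.3) fitted its quasi-likelihood model to the 12 libraries together (8 residual degrees of freedom), with Benjamini-Hochberg adjustment over all genes, calls at an adjusted p under 0.05 whatever the fold. The biological coefficient of variation came to 12.4%, and genes at low CPM rest on few counts and are less precise. SEs are the absolute log2 change over the square root of F. The contrasts were T29 minus T28, that step minus the mean of the other 2, T30 minus T27, and, for background, the other steps, which share libraries with this one. The code was run on counts simulated from the same kind of model as the fit, with fewer changed genes than here. That run checks the code and not the calls in these data.

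The 63 gene lists were matched by symbol and described by counts and medians, with no set test. The stages compared, the lists and the rule for named genes were chosen with earlier results of these data known. The rule took called genes with a symbol: the 20 largest changes each way among those with a mean of at least 1 CPM in T28 or T29 and no overlap between the stages; up to 6 members per list and direction by p; the 8 smallest p each way for the step against the others; and the 6 largest changes each way that were opposite to the span. It also took all thyroid members and the defining markers, of which 1 gene is not reported here. Of its 255 genes the text gives 115, picked after their values were seen and with preference for stable calls: 85 of the 90 called ones kept the call in every alternative, against 124 of 229 for the whole rule. Alternatives were other scalings, DESeq2, limma-voom, other filters, the 6 libraries alone, the replicate number as a block, and each library left out; 1 more, the block in the fit of the 6 libraries, was added after seeing the data.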

Additional observations from a re-analysis of the deposited data

Results flagged for a closer look

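The change of 2346 genes from T28 to T29 differed from the mean change of the other 2 steps in edgeR's test (adjusted p under 0.05), a test of the difference itself. The values in brackets are the log2 change at this step minus that mean. The mean joins 2 unlike steps, so a value does not say that the change here was above or below each of them. Among genes named above, replication, mitosis, repair and nuclear genes fell less here than that mean, in each case with the largest fall from T29 to T30: MCM7 (0.42), MCM5 (0.54), WDHD1 (0.56), SMC4 (0.58), SMC2 (0.42), KNL1 (0.78), KIF11 (1.03), CHEK1 (0.63), HELLS (0.63), SUV39H2 (0.35) and RCC1 (0.62). Nucleolar and sterol genes were on both sides: UTP25 (−0.59), NOL6 (−0.38), RRP12 (−0.47), LSS (−0.89) and PES1 (0.41). Secretory genes were above the mean with 1 exception: PDIA4 (1.05), ERLEC1 (0.49), TMED2 (0.47), GOSR2 (0.39), ERGIC1 (0.79), RPN1 (0.53) and GALNT3 (0.54), against ALG12 (−0.49) for the mannosyltransferase. In mitochondria the genes were NDUFS8 (0.74) and MRPL44 (1.13).

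Thyroid genes were below the mean: SLC5A5 (−1.0), LRP2 (−2.38), IYD (−0.71), PAX2 (−1.15) and HHEX (−0.57). Muscle genes were MUSTN1 (2.10), HSPB7 (1.63), ANKRD2 (1.46) and NEBL (−0.75), ciliary genes DNAH5 (−1.24), C2CD3 (−0.75) and CEP83 (−0.58), and markers of other cells DCT (−1.53) and PRRX1 (1.10). Further genes were BOLL (2.03), LDLRAD2 (2.20) and SPATA1 (1.78) above and HPX (−2.32), DRD2 (−2.14), KLHL14 (−1.53), SYCP3 (−1.53) and MYB (−0.95) below it, as was JAG1 (−0.55). No explanation was tested.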

How the results depend on the processing

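The direction of the summary results held in every alternative run, while counts depended on which libraries entered. The 2215 changed genes became 2111 (no filter on low counts) to 2719 (DESeq2) with other scalings, filters, tools or the 6 libraries alone. Leaving out 1 library gave 1192 to 2395 in all, 745 to 1388 higher, 447 to 1017 lower and 1277 to 2784 for the step against the others. These fits each have 1 library fewer, and the loss of calls depended on its stage. Among the 255 genes chosen by the rule, 48 to 76 calls were lost without a T28 or T29 library. Without a T27 or T30 library 2 to 9 were lost.

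A pairing of samples by replicate number was not shown. Deviations of same-numbered T28 and T29 libraries correlated at −0.125, −0.032 and −0.289. Over all pairs of stages such values ran from −0.289 to 0.241 (T27 and T29, replicate 3). With 3 libraries per stage these correlations cannot exclude pairing, and the summed sarcomere list was lowest in replicate 2 at every stage. With the replicate block in the fit of 12 libraries 2007 genes changed, and the chromatin count was 7. The replicate block in the fit of T28 and T29 libraries alone, an alternative chosen after seeing the data, gave 1276 changed genes, 858 higher and 418 lower. Its list counts were 16 for DNA repair, 11 for vesicle transport, 3 for the citric acid cycle, 6 for the nucleolus, 5 for the nuclear pore and 4 for chromatin. The 6 libraries without a block gave 12 for N-glycan synthesis and 23 for the respiratory chain.

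Over left-out libraries the list counts ran from 27 to 44 for replication, 20 to 39 for mitosis, 16 to 30 for repair, 6 to 23 for the nucleolus, 5 to 18 for the pore, 5 to 11 for chromatin, 9 to 19 for ER folding, 2 to 9 for N-glycans, 7 to 22 for vesicles, 19 to 43 for the axoneme, 1 to 12 for the respiratory chain, 3 to 7 for the citric acid cycle and 7 to 12 for the sarcomere. Median log2 changes that moved beyond the spread between libraries ran from −0.282 to −0.227 for repair, 0.151 to 0.195 for ER folding, 0.0812 to 0.136 for N-glycans and −0.159 to −0.12 for chromatin.

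Of 255 genes chosen by the rule, 229 were called, 128 kept the call under all 12 left-out libraries and 124 under every alternative. The text leans towards the stable ones. Signs changed in 3 uncalled genes, where leaving out 1 library gave log2 changes from −0.0248 (without T29 replicate 2) to 0.379 for KCNQ1, and from −0.163 to 0.0261 for IYD and −0.444 to 0.00674 for TTR (both highest without T29 replicate 1); the cause was not tested. The call of NEBL was also lost with RLE or upper-quartile scaling, the stricter filter and both fits of 6 libraries, and that of LRP2 in both fits of 6 libraries. Promoter motif shares were not run, since no promoter sequences were used here.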
